A study of Homo sapiens with 16 samples.

Results

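The band 9p21 on the short arm of human chromosome 9 was examined as the 3 Mb from 20000000 to 23000000 (hg19), with 7 genes as landmarks: MLLT3, FOCAD, KLHL9, MTAP, CDKN2A, CDKN2B and DMRTA1. All peaks in this window were taken from 12 deposited ChIP-seq peak lists, 40 of the 192665 peaks on chromosomes 1 to 22 and X. The question was where the peaks of each histone mark stop in each cell line. The lists come from MDA-MB-231, a breast cancer line that the labels call derived from a metastatic site, and from MCF-10A, a non-tumorigenic breast epithelial line that the labels call luminal ductal. Each line came from a stock kept in the laboratory and was used before confluence; the labels name no treatment. MCF-10A was grown with EGF, insulin, cholera toxin and hydrocortisone, so the lines differ in medium as well as in origin. H3K4me3, which marks active and poised promoters, H3K27me3, the mark of Polycomb repression, and H3K9me2, a mark of silenced chromatin, were each mapped in 2 biological replicates per line, and the 4 inputs, which complete the 16 samples, were not analysed here.

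CDKN2A encodes 2 unrelated tumour suppressors from overlapping reading frames: INK4A, which inhibits the kinases CDK4 and CDK6 and so keeps RB1 active, and ARF, which restrains MDM2. CDKN2B encodes a close relative of INK4A. The band is among the regions most often lost in human tumours, and MTAP, which salvages methylthioadenosine into methionine and adenine, is often lost with its neighbour. Both lines are known from earlier work to lack CDKN2A. MLLT3 encodes a reader of acylated histones and is a fusion partner of KMT2A in leukaemia, FOCAD encodes focadhesin, KLHL9 is a substrate adaptor of the CUL3 ubiquitin ligase, and DMRTA1 is a DM-domain factor. In the RefSeq order of GRCh38.p14, 22 protein-coding genes follow FOCAD up to and including DMRTA1, and 16 of them are type I interferon genes. MIR31HG and MIR31 lie between KLHL9 and MTAP in that order. The next protein-coding gene after DMRTA1 is ELAVL2.

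The promoters on which the comparison turns are shown as reference sequence from RefSeq on GRCh38.p14, as the 250 bases before each start, with every CG in capitals. The peak positions in the rest of the text are on hg19 and were not converted. The first pair carried H3K4me3 in MCF-10A and had no peak in MDA-MB-231. At the other 4 no peak of any mark lay within 2 kb of the anchor in any list.
KLHL9, chr9:21335405-21335654, minus strand: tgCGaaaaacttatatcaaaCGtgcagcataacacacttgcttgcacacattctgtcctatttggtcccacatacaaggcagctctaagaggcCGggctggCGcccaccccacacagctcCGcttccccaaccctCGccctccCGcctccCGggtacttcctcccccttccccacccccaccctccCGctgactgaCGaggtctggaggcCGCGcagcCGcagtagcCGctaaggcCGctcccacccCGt
DMRTA1, chr9:22446574-22446823, plus strand: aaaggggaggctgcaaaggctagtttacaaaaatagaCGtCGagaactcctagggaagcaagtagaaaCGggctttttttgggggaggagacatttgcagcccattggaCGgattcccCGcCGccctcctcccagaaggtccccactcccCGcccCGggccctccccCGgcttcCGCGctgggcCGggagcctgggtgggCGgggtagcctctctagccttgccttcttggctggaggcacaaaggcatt
MTAP, chr9:21802386-21802635, plus strand: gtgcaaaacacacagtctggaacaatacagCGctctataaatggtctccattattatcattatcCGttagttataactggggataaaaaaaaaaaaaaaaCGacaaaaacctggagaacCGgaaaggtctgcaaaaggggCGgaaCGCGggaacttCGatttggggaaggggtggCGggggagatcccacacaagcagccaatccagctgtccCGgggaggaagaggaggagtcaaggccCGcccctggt
CDKN2A, outer start, chr9:21995325-21995574, minus strand: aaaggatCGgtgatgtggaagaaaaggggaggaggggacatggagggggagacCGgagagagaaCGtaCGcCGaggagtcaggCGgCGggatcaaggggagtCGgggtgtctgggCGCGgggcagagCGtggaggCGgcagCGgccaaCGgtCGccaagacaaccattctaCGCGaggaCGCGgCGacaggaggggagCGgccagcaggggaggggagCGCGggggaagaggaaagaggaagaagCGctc
CDKN2A, inner start, chr9:21974858-21975107, minus strand: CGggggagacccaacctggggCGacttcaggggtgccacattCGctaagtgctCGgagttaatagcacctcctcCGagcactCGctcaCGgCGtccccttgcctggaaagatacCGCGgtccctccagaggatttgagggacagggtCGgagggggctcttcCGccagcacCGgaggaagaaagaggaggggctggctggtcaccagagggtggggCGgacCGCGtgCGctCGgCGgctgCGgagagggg
CDKN2B, chr9:22009306-22009555, minus strand: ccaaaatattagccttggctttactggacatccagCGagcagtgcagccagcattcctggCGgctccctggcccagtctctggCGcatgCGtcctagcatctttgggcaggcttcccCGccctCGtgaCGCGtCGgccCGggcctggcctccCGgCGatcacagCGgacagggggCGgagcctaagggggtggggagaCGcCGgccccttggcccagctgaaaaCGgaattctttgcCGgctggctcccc

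The numbers of CG overlapped between promoters with H3K4me3 and those without. The search was for the letters CG on the printed strand, which reads the same on the other strand. CG occurred 24 and 20 times at the outer and inner CDKN2A starts, 18 times at CDKN2B and 11 times at MTAP, the fewest of the set. KLHL9 held 16 and DMRTA1 held 13, and of the promoters of the other members, not printed, MLLT3 held 24 and FOCAD held 35, the most of all. Of 35116 RefSeq promoters, 23.7% held at least 24, 32.4% at least 20, 36.8% at least 18, 41.0% at least 16, 46.6% at least 13 and 50.3% at least 11. The count describes the reference and says nothing of the DNA present in either line.

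In MDA-MB-231 H3K4me3 peaks stopped 26.6 kb right of the FOCAD anchor and none followed in the window, whereas in MCF-10A they went on to KLHL9 and beyond, skipped MTAP, CDKN2A and CDKN2B, and returned at DMRTA1. MDA-MB-231 replicates 1 and 2 each had 3 H3K4me3 peaks in the window, against 6 and 7 in MCF-10A. H3K4me3 lay within 2 kb of the anchor in both replicates at 2 of 7 genes in MDA-MB-231 (MLLT3 and FOCAD) and at 4 of 7 in MCF-10A (these 2, KLHL9 and DMRTA1). Of 7 merged H3K4me3 regions, 0 were found in MDA-MB-231 alone (both replicates; 6.27% of 18048 regions over the genome), 3 in MCF-10A alone (both replicates; 5.91%) and 3 in every library (68.5%). The last was in MCF-10A replicate 2 only. The difference in peak number, MDA-MB-231 minus MCF-10A, was -3.5 for H3K4me3, -7.5 for H3K27me3 and -1 for H3K9me2, with a two-sided exact permutation p = 0.333 each, the smallest that 2 against 2 libraries allow.

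**Figure D1:**
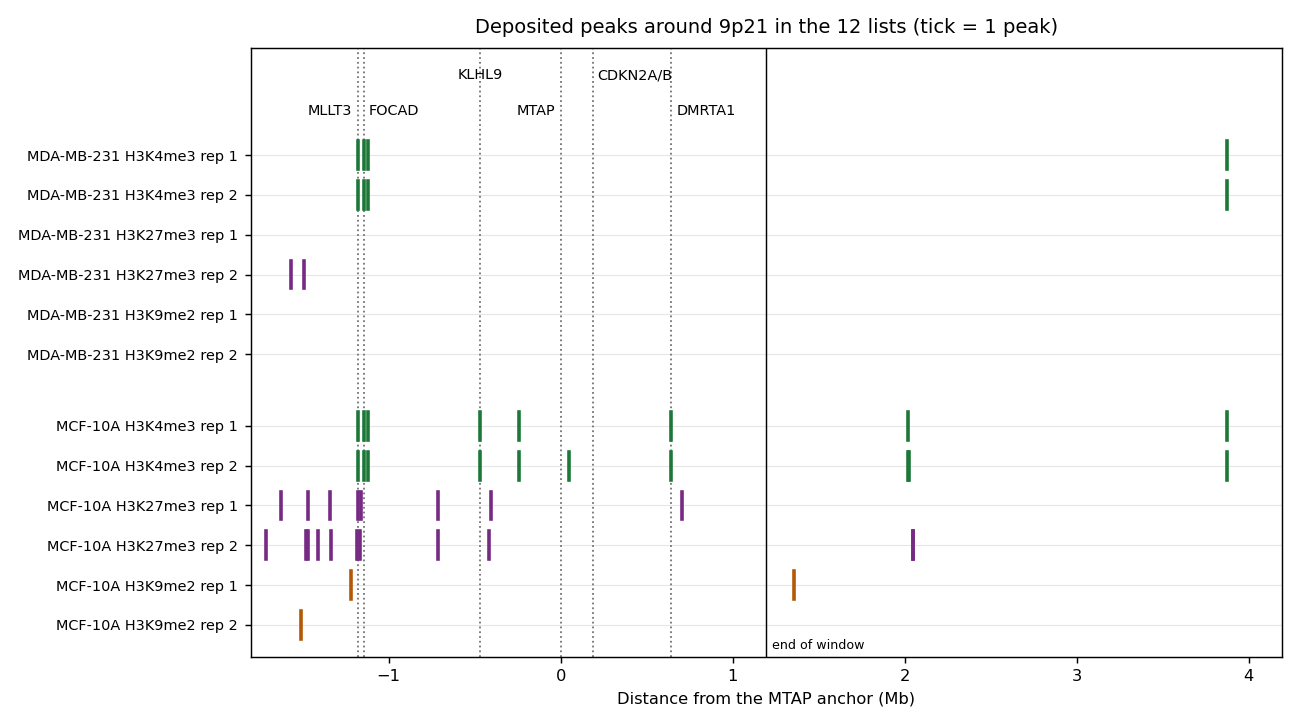
Peaks of the 12 deposited lists by distance from the MTAP anchor in Mb, with MDA-MB-231 above MCF-10A; each tick is 1 peak and dotted lines are the gene anchors. Right of the region that ends 26.6 kb past the FOCAD anchor the MDA-MB-231 lists show no peak until H3K4me3 returns right of the window, while both MCF-10A H3K4me3 lists have peaks at KLHL9 and DMRTA1 and none at the CDKN2A and CDKN2B anchors.

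The 3 shared regions lay at the left of the window. At MLLT3 (chr9:20619988-20624507, merged over libraries) H3K4me3 peaks covered 4520 and 4027 bp in MDA-MB-231, against 2207 and 2557 bp in MCF-10A. The replicates did not overlap between the lines, and the MDA-MB-231 peaks reached further on both sides of the anchor at 20622514. The covered length was 1.80-fold greater in MDA-MB-231, with both replicates above both of MCF-10A (limma adjusted p = 0.00137 for a log2 ratio of 0.84, SE 0.103). This comparison of lengths was chosen after the values were seen, and it was fitted over all 12367 regions present in the 4 libraries, of which 4.18% were called longer in MDA-MB-231 and whose median log2 ratio was 0.04.

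At the FOCAD anchor (20658308) the peaks were small in both lines, with 1161 and 1127 bp covered in MDA-MB-231 and 559 and 993 bp in MCF-10A. The log2 ratio of 0.62 did not pass (SE 0.279, limma adjusted p = 0.244); without MCF-10A replicate 2 it was 1.03 and passed (limma adjusted p = 0.0195). A second region, chr9:20683523-20684882, lies right of that anchor and was alike in length, at 1319 and 1195 bp in MDA-MB-231 and 1239 and 1318 bp in MCF-10A (limma adjusted p = 0.953 for a log2 ratio of -0.026, SE 0.160). It lies 61.0 to 62.4 kb from the MLLT3 anchor on hg19. The RefSeq start of FOCAD lies 61.8 kb from that of MLLT3 on GRCh38.p14, whereas the 2 anchors are 35.8 kb apart, so the second region, and not the anchor, has the spacing of the RefSeq start. The authors' scores were higher at the second region than at the anchor in all 4 lists, at 768 and 851 against 439 and 374 in MDA-MB-231, and at 1160 and 2025 against 155 and 308 in MCF-10A. Its right edge, 26.6 kb from the FOCAD anchor, was the last base under any peak in MDA-MB-231 before the long stretch without peaks.

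KLHL9 and DMRTA1 had H3K4me3 in MCF-10A and none in MDA-MB-231. At KLHL9 (anchor 21335429) no peak was listed in either MDA-MB-231 replicate, where the nearest H3K4me3 peak was 650.5 and 650.6 kb away, against peaks of 1090 and 1090 bp over the anchor in the MCF-10A replicates. At DMRTA1 (anchor 22446840) the nearest MDA-MB-231 peak was 1762 kb away in both replicates, against peaks of 1439 and 1440 bp over the anchor in MCF-10A. The MCF-10A replicates were nearly equal at both promoters. Their scores fell at the 26.7 and 35.2 percentile of their own lists for KLHL9 and at the 49.1 and 45.9 percentile for DMRTA1.

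One more region with H3K4me3 in both MCF-10A replicates and neither MDA-MB-231 replicate, chr9:21558383-21560409, lay between the KLHL9 and MTAP anchors. No peak was listed there in MDA-MB-231, against 2027 and 1877 bp covered in MCF-10A, the longest MCF-10A coverage in the window after MLLT3. No gene was assigned to it, because no annotation of hg19 was used.

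MTAP, CDKN2A and CDKN2B had no peak of any mark within 2 kb in any of the 12 lists. The span that anchors CDKN2A and CDKN2B runs from 21967751 to 22009312. The nearest H3K4me3 peak to it was 1283 kb away in both MDA-MB-231 replicates, and 407.3 and 117.7 kb away in the MCF-10A replicates. The MTAP anchor (21802635) was 1118 kb from the nearest H3K4me3 peak in both MDA-MB-231 replicates, and 242.2 and 47.2 kb in the MCF-10A replicates. The near values in MCF-10A replicate 2 come from 1 peak of 242 bp, chr9:21849837-21850078, with a score of 94.1 at the 9.71 percentile of that list. MCF-10A replicate 1 had no peak there.

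**Figure D2:**
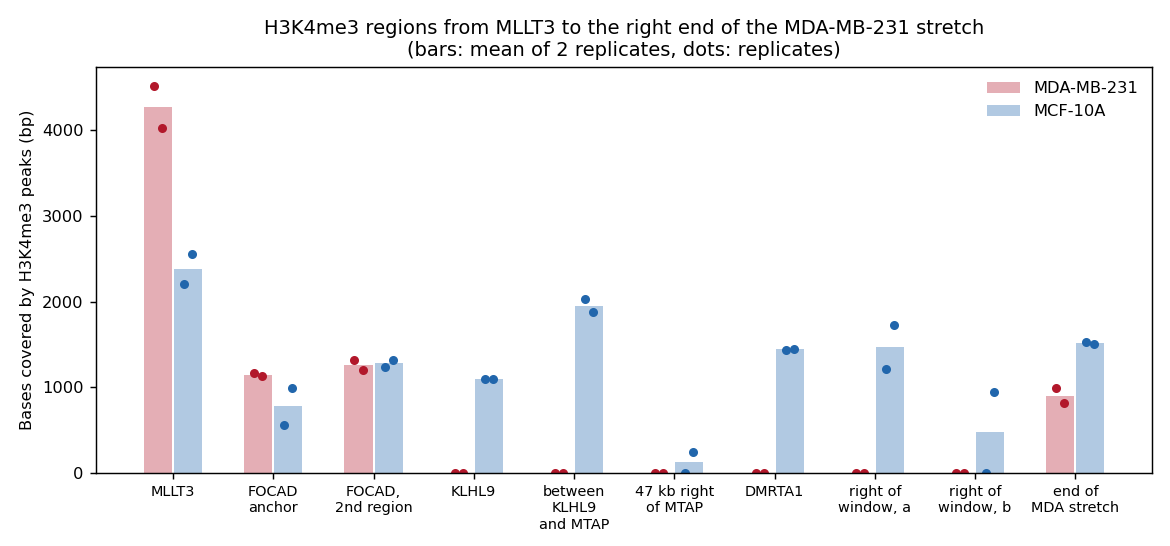
Bases covered by H3K4me3 peaks (bp) in each merged region from MLLT3 to the right end of the MDA-MB-231 stretch, in order along the chromosome, with MDA-MB-231 left of MCF-10A; bars are means of 2 replicates and dots the replicates. MDA-MB-231 exceeds MCF-10A at MLLT3 (4520 and 4027 bp against 2207 and 2557 bp) and is at 0 from KLHL9 until the last region.

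In MDA-MB-231 the stretch without a peak of any mark ran from 20684883 to 25677395, or 4.99 Mb, and held the anchors of KLHL9, MTAP, CDKN2A, CDKN2B and DMRTA1. It left the window on the right. In MCF-10A the stretch around CDKN2A and CDKN2B ran from 21850079 to 22446548, or 596.5 kb, and its left end was the small peak of replicate 2. Counting only regions present in both replicates of a mark, it ran from 21560410 to 22446548, or 886.1 kb, and then held MTAP as well, while in MDA-MB-231 it stayed at 4.99 Mb. Both MCF-10A stretches lie wholly inside the MDA-MB-231 one. The ends are known only to the nearest peak.

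Long stretches without peaks also occurred elsewhere. Of 53643 stretches between peaks in MDA-MB-231, 18 (0.0336%) were at least as long as the one at 9p21, which is itself counted. Centromeres and gaps in the assembly were included, and the median was 7219 bp. In MCF-10A 436 of 69109 (0.631%) were at least as long as 596.5 kb, again with the stretch itself counted, and the median was 8936 bp. In each list of H3K4me3 alone 0.163% and 0.192% of gaps in MDA-MB-231 were at least as long as the gap over CDKN2A. In MCF-10A these shares were 4.24% and 6.22%, and all of them count that gap itself.

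MCF-10A had promoter-type marking inside the MDA-MB-231 stretch. The stretch held 4 regions with H3K4me3 in both MCF-10A replicates: KLHL9, the region between KLHL9 and MTAP, DMRTA1, and chr9:23820464-23822187, right of the window, at 1206 and 1724 bp. Of the 18 stretches at least as long, 13 held no such region and 1, the stretch at 9p21, held 4 or more. Over all 53643 stretches 10 held at least 4, and the other 9 were at most 0.581 Mb long. The MCF-10A stretch around CDKN2A lies inside the MDA-MB-231 one, so by definition it held no MDA-MB-231 peak and was empty in all 12 lists. Whether DNA is absent from either stretch was not tested: a lost segment and a segment without these marks cannot be told apart without the inputs.

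**Figure D3:**
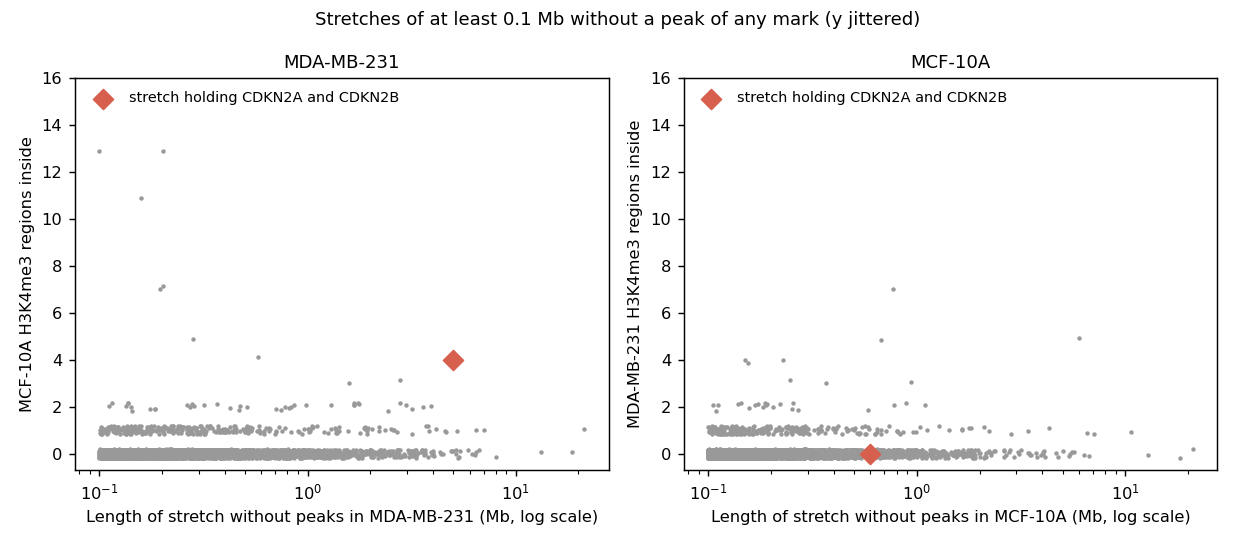
Length (Mb, log scale) of each stretch of at least 0.1 Mb without a peak of any mark in MDA-MB-231 (left) and MCF-10A (right), against the number of H3K4me3 regions of the other line inside it, drawn with small vertical jitter. The diamond is the stretch holding CDKN2A and CDKN2B: it is 4.99 Mb long with 4 MCF-10A regions inside in MDA-MB-231, and 0.596 Mb long with 0 MDA-MB-231 regions inside in MCF-10A. That 0 was fixed, because the MCF-10A stretch lies inside the MDA-MB-231 one.

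On both sides of the MDA-MB-231 stretch the lines shared most H3K4me3 regions, as they did over the genome. There, 12367 of all 18048 merged regions (68.5%) were in all 4 libraries and 1067 (5.91%) in both MCF-10A libraries only. The flank counts that follow are out of MCF-10A regions in both replicates, a share that was not computed over the genome. Whether sharing sets these flanks apart was therefore not tested. In the 5 Mb to the left, MDA-MB-231 had 10 regions in both replicates and MCF-10A had 10, of which 8 were also in both MDA-MB-231 replicates. In the 5 Mb to the right MDA-MB-231 had 6, counting the region at the end of the stretch. MCF-10A had 7 without that region, of which 5 were shared. In MCF-10A the region at the end begins inside the stretch, so it was left out of both MCF-10A counts, although it was in all 4 libraries. The first peak after the stretch, chr9:25677296-25678826, was shorter in MDA-MB-231, at 985 and 816 bp against 1531 and 1506 bp in MCF-10A, a log2 ratio of -0.76 with SE 0.1795. It passed (limma adjusted p = 0.0341), where 2.71% of shared regions were called shorter in MDA-MB-231. That call was lost without MDA-MB-231 replicate 2 (limma adjusted p = 0.0696) or without MCF-10A replicate 1 or 2 (limma adjusted p = 0.0991 and 0.0556), and with peaks scoring at least 100 (limma adjusted p = 0.0527).

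The repressive marks were sparse at 9p21 in both lines and do not locate an edge in MDA-MB-231. H3K27me3 had 0 and 2 peaks in the window in MDA-MB-231, against 8 and 9 in MCF-10A, and H3K9me2 had 0 and 0 in MDA-MB-231, against 1 and 1 in MCF-10A. In MDA-MB-231 the H3K9me2 lists held no peak for 23.2 and 23.4 Mb around CDKN2A, and the H3K27me3 lists held none for 23.6 Mb in replicate 1 and 7.27 Mb in replicate 2. Replicate 1 of H3K27me3 in MDA-MB-231 was a short list, with 8470 peaks against 30496 in replicate 2. These stretches run past both ends of the H3K4me3 one, so the ends of the MDA-MB-231 stretch rest on H3K4me3 alone.

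A window of 3 Mb with so few peaks was not rare. Among 988 tiles of 3 Mb in phase with the window, 18.5% and 18.6% had as few H3K4me3 peaks or fewer in the MDA-MB-231 lists, and 31.7% and 33.0% in the MCF-10A lists. For H3K27me3 these shares were 37.6% and 40.5% in MDA-MB-231 and 41.0% and 40.7% in MCF-10A. For H3K9me2 they were 37.2% and 36.6% in MDA-MB-231 and 10.7% and 13.0% in MCF-10A. These tiles include centromeres and gaps in the assembly, and the window count includes the peaks at MLLT3 and FOCAD. The shares therefore do not settle whether a list was unusually empty.

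Most repressive peaks of MCF-10A lay left of KLHL9, and few were found in both replicates. Of 17 merged H3K27me3 regions, 0 were in MDA-MB-231 alone (both replicates; 2.99% of 66286 regions over the genome), 2 in MCF-10A alone (both replicates; 11.1%) and 0 in every library (1.77%). The remaining 15 fell in none of these classes, as did 84.1% of regions over the genome. Low agreement between replicates was thus not particular to 9p21. One of the MCF-10A pair was chr9:20334902-20335575, with 557 and 652 bp covered in the MCF-10A replicates. The other was chr9:21087154-21088273, between the FOCAD and KLHL9 anchors, with 614 and 618 bp. At MLLT3 no H3K27me3 peak lay within 2 kb of the anchor in MDA-MB-231, against 1 peak in each MCF-10A replicate, at 1.32 and 0.972 kb on opposite sides, so the 2 did not overlap. All H3K27me3 scores named here lay between 50 and 100. The H3K9me2 peaks of MCF-10A, chr9:20582943-20584102 in replicate 1 and chr9:20293232-20294584 in replicate 2, were each in 1 list. The 2 merged H3K9me2 regions fell in none of these classes, which held 9.12%, 23.4% and 5.3% of 18327 regions over the genome in the same order. To the right of CDKN2B the window held 1 repressive peak, H3K27me3 of MCF-10A replicate 1 at chr9:22508069-22508722.

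The same pattern was tested as coverage of 1 Mb bins, with each library's covered bp scaled per Mb under its peaks (bp/Mb), across the whole genome. In the bin from 20000001, which holds MLLT3 and FOCAD, the MDA-MB-231 replicates stood at 324 and 293 bp/Mb of H3K4me3 and the MCF-10A replicates at 200.4 and 222 bp/Mb. The log2 ratio of 0.53 passed (SE 0.0918, limma adjusted p = 0.00886), where 17.9% of 2382 bins were called higher in MDA-MB-231. That call did not hold without any 1 of the 4 libraries (limma adjusted p between 0.0940 and 0.136). In the bin from 21000001 both MDA-MB-231 replicates were listed at 0, with the MCF-10A replicates at 156 and 146 bp/Mb (limma adjusted p = 0.0001525), and in the bin from 22000001 both MDA-MB-231 replicates were at 0 and the MCF-10A replicates at 72.0 and 65.6 bp/Mb (limma adjusted p = 0.000362). Of all bins tested 17.1% were called lower in MDA-MB-231. All 55 tested bins with both MDA-MB-231 libraries at 0 were among them. Such bins were tested only because both MCF-10A libraries covered them, so the call adds little to the listing at 0.

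For H3K27me3 the bin from 20000001 stood at 0 and 62.4 bp/Mb in the MDA-MB-231 replicates and at 126 and 182 bp/Mb in the MCF-10A replicates, which did not pass (limma adjusted p = 0.145); without MDA-MB-231 replicate 2 it passed (limma adjusted p = 0.0211). The bin from 21000001 was listed at 0 in both MDA-MB-231 replicates, with 48.6 and 48.5 bp/Mb in the MCF-10A replicates (limma adjusted p = 0.00286), where 38.2% of 2100 bins were called lower, 15% higher and 531 of the 536 tested bins with MDA-MB-231 at 0 were called. For H3K9me2 only the bin from 20000001 could be tested, with both MDA-MB-231 replicates at 0 and the MCF-10A replicates at 60.9 and 86.5 bp/Mb (limma adjusted p = 0.00153), where 42.2% of 2334 bins were called lower, 11.4% higher and 881 of the 882 tested bins with MDA-MB-231 at 0 were called. Over all bins tested the median log2 ratio was 0.0055 for H3K4me3, -1.21 for H3K27me3 and -2.24 for H3K9me2, so most tested bins of both repressive marks had a ratio below 0. Here too a bin at 0 in MDA-MB-231 was tested only because both MCF-10A libraries covered it. The call at such a bin therefore adds little to the listing at 0. The H3K27me3 call rests on 2 peaks in each MCF-10A library. The H3K9me2 call rests on 1 in each, and those peaks do not overlap. With a score of at least 100 no repressive peak was left in the window, and neither bin could then be tested.

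**Figure D4:**
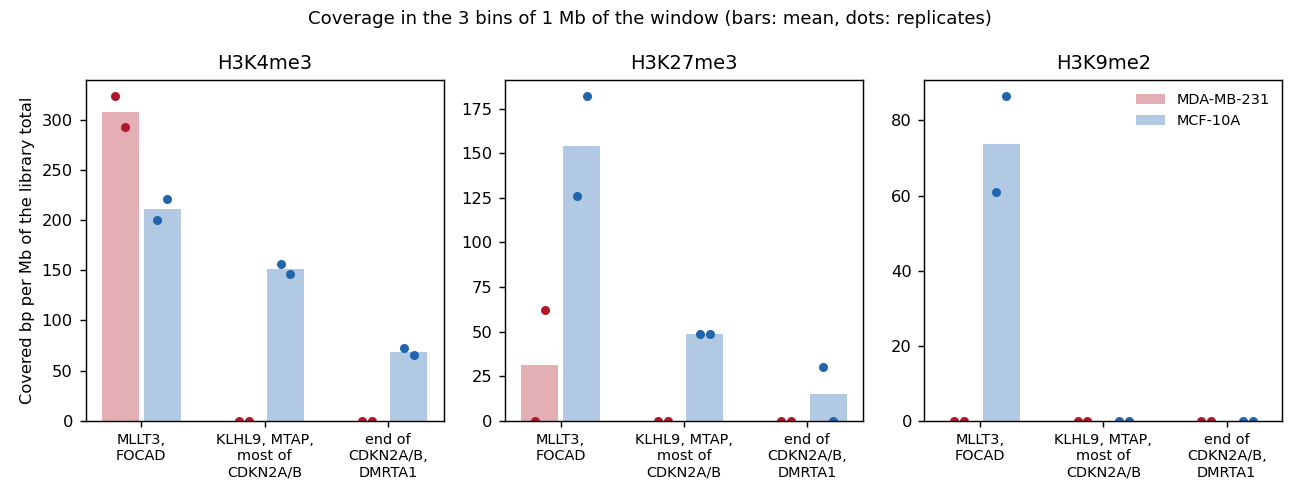
Coverage by peaks in the 3 bins of 1 Mb of the window, in covered bp per Mb of the library total, for each mark, with MDA-MB-231 left of MCF-10A; bars are means of 2 replicates and dots the replicates. H3K4me3 is higher in MDA-MB-231 in the first bin (324 and 293 against 200.4 and 222 bp/Mb) and at 0 in the other 2, where MCF-10A is at 156 and 146 and at 72.0 and 65.6 bp/Mb.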

How the data were processed

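The authors deposited 1 list per replicate and mark, each row a peak with chromosome, start, end, name and a score. No source used here gives the scale of that score. The lowest score was 50, and scores were used only within a list. MACS 1.4, Bowtie2, CASAVA 1.6, bedtools and the build hg19 appear, without roles, in the submitters' processing notes. Read numbers are not in the lists; depth is therefore unknown, and precision rests on 2 replicates per group. Only chromosomes 1 to 22 and X were used, and positions count from 1. Anchors come from the definition of the window.

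For each mark the peaks of its 4 libraries were joined into regions at an overlap of at least 1 bp. Bins of 1 Mb covered in at least 2 of 4 libraries, as log2(bp/Mb + 10), and log2 covered bp of shared H3K4me3 regions were each fitted with limma 3.58.1 (R 4.3.3; trend, empirical Bayes, Benjamini-Hochberg over the whole table, threshold 0.05). Intervals were handled in Python 3.11.15 with NumPy 2.4.6 and drawn with matplotlib 3.10.9. Bin, length and interval steps were tested on simulated data. Genes were the 7 members, regions all H3K4me3 regions of the window, repressive regions of both replicates and the peaks that bound stretches. Single repressive peaks named beside an anchor or as the only ones of a mark, the regions right of the window and the lengths were chosen after their values were seen. The members, lists and tests were chosen with earlier results of these data known. Nearby genes were named from RefSeq on GRCh38.p14 by order only; all 7 members matched. The planned list of cell cycle partners of CDKN2A got no value, because no annotation of hg19 was used. Alternatives were other pseudocounts, filters, scaling, bin sizes, score minimums, distances, single lists left out and the replicate number as a block.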

Additional observations from a re-analysis of the deposited data

How the results depend on the processing

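The H3K4me3 pattern held under the alternatives tried: 3 regions in both MCF-10A libraries only (3 or 4 with a library left out), and 2 and 4 of 7 anchors marked in MDA-MB-231 and MCF-10A at 1, 2 and 5 kb. Demanding that peaks cover at least 50% of a region left 1 of the 3 regions in all 4 libraries. With a score of at least 100 the window held no repressive peak, so the difference in peak number was 0 for H3K27me3 and for H3K9me2, and 0 H3K27me3 regions were left in both MCF-10A libraries only. Within 1 kb, 0 anchors had H3K27me3 in both MCF-10A replicates, against 1 (MLLT3) within 2 kb. With a library left out, H3K27me3 regions found in MCF-10A only numbered 2 to 9, those in MDA-MB-231 only 0 to 2, and H3K9me2 regions in MCF-10A only 0 to 1, because 1 list then stands for a line.

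The MDA-MB-231 stretch was 4992.5 kb, 4992.6 to 4992.8 kb with one replicate left out, and 6037.5 kb without the H3K4me3 lists. The MCF-10A stretch around CDKN2A and CDKN2B was 596.5 to 886.2 kb with one replicate left out, 886.1 kb with a score of at least 100 or regions in both replicates, and 1111.5 kb without H3K4me3. The longest MCF-10A stretch that overlaps the window, 651.8 kb, lay right of DMRTA1. The longest was still right of DMRTA1 at 1372.5 kb without MCF-10A replicate 1, 1372.4 kb with a score of at least 100 or regions in both replicates and 1311.7 kb without H3K9me2. It was the one around CDKN2A and CDKN2B at 886.2 kb without MCF-10A replicate 2 and 1111.5 kb without H3K4me3. The length of the second FOCAD region ranged over log2 ratios of -0.097 to 0.046 with a library left out; it was 0.046 without MDA-MB-231 replicate 2 and 0.019 without MCF-10A replicate 2, against -0.026 with all.

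Counts of bins called over the genome, higher and lower in MDA-MB-231, were 427 and 407 for H3K4me3, 316 and 802 for H3K27me3, and 267 and 984 for H3K9me2. Bins of 250 kb gave 706 and 626, 634 and 1782, and 601 and 2359. Peaks scoring 100 or more gave 75 and 523 for H3K27me3 and 101 and 556 for H3K9me2. Unscaled coverage gave 259 lower for H3K4me3 and 57 higher for H3K27me3. With a library left out the counts were 44 to 68 and 67 to 112 for H3K4me3, 104 to 296 higher for H3K27me3 and 161 to 230 higher for H3K9me2. Shared H3K4me3 regions called longer numbered 517, 418 to 905 with a library left out and 315 with a score of at least 100, and those called shorter 335 and 217. With a library left out, the lone library of a line was assumed to vary like the other line. The cause of these moves was not tested. With the replicate number as a block H3K4me3 gave 386 and 376 bins, and no call at 9p21 changed; same-numbered libraries deviated together at r = 0.0895, 0.0211 and -0.0135 across bins for H3K4me3, H3K27me3 and H3K9me2, so the numbers were not taken as pairs. No read depth is given, so a missing peak is a peak not called in these lists.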
